A study of Rattus norvegicus with 294 samples.

Results

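The 9 genes described here handle phosphate and pyrophosphate in mineralizing bone: Alpl, Phospho1, Enpp1, Ank (listed by its present symbol, Ankh), Slc20a1, Slc20a2, Phex, Fgf23 and Fam20c. They were chosen by name, and all 9 were on the array, among 14217 genes with a probe set annotated to 1 gene alone. Such probe sets numbered 11 for the 9 genes, and the one with the highest mean log2 intensity stood for each gene. Ankh and Slc20a2 had a further probe set each, with means over all arrays of 3.25 against 8.29 for Ankh and 2.67 against 2.75 for Slc20a2.

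The arrays came from female Sprague-Dawley rats that were ovariectomized at 6 months of age and then left untreated for 8 weeks, so that every group, controls included, lacks ovarian hormone. The rats were injected under the skin once a week with vehicle or with a sclerostin antibody (Scl-Ab) at 3 or 50 mg/kg, for up to 183 days. Rats of all 3 treatments were killed on days 8, 29, 85 and 183. Others stopped dosing at that point and were killed later, on days 197 and 267 (vehicle and 3 mg/kg) or days 237 and 309 (vehicle and 50 mg/kg). From the body of a lumbar vertebra, laser capture with a calcein label as guide gave samples enriched in osteoblasts, bone lining cells or osteocytes, whose RNA was amplified before hybridization. There were 97 osteoblast, 100 lining cell and 97 osteocyte arrays, 294 in all. Groups held 5 rats each with 5 exceptions. In osteoblasts, 4 arrays were available for day 8 (3 mg/kg), day 85 and day 237 (both 50 mg/kg). In osteocytes, day 29 had 4 arrays for 3 mg/kg, and day 85 had 3 for 50 mg/kg.

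Mineral forms when free phosphate is high and pyrophosphate, which blocks crystal growth, is low. Alkaline phosphatase (Alpl) breaks pyrophosphate down and PHOSPHO1 frees phosphate inside matrix vesicles, whereas ENPP1 makes extracellular pyrophosphate and ANKH exports it or the ATP it is made from; SLC20A1 and SLC20A2 carry phosphate into cells. Osteocytes also set phosphate in the blood by way of the hormone FGF23, which is restrained by PHEX and cleaved less or more depending on phosphorylation by the kinase FAM20C, which acts on secreted matrix proteins. Sclerostin, made by osteocytes, restrains Wnt signalling and bone formation, and its antibody lifts that restraint.

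Positions are those of RefSeq on rat build GRCr8. Of the phosphate-releasing enzymes, Alpl (probe set 1368139_s_at) lies at chr5:155234770-155289785 and Phospho1 (1383749_at) at chr10:81258810-81266345. Of the pyrophosphate suppliers, Enpp1 (1370047_at) lies at chr1:22518051-22583044 and Ankh (1393439_a_at) at chr2:79883350-80011222. The phosphate carriers Slc20a1 (1370314_at) and Slc20a2 (1369234_at) lie at chr3:136880360-136894255 and chr16:76163315-76253881. Of the genes of systemic phosphate control and matrix phosphorylation, Phex (1369719_at) lies at chrX:41422561-41671226, Fgf23 (1369595_at) at chr4:161600439-161609991 and Fam20c (1389695_at) at chr12:20940654-20999072.

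No 2 of the 294 arrays held identical values, and depth has no counterpart in array data, so precision rests on the number of arrays. The median log2 intensity of an array lay between 3.43 and 3.72 in osteoblast, 3.14 and 3.36 in lining cell and 2.89 and 3.12 in osteocyte samples, so levels were compared between cell types only after quantile normalization. The mean of the 4 osteocyte markers on the array, of 5 listed (Sost, Dmp1, Mepe and Pdpn), was 7.32 in osteocyte, 4.71 in osteoblast and 4.53 in lining cell vehicle samples, although Sost itself was at percentile 43.9 of the probe sets in osteocyte arrays. The 4 osteoblast markers of 6 listed averaged 9.86 in osteoblast, 8.59 in lining cell and 11.11 in osteocyte samples. The 3 granulocyte markers of 8 listed averaged 11.51, 11.53 and 10.98 in osteoblast, lining cell and osteocyte samples, so transcripts of these marrow cells were high in all 3. Other cells differed more between samples. In the same order, megakaryocyte markers averaged 7.84, 7.72 and 6.03, endothelial markers 4.96, 4.98 and 3.9, and chondrocyte markers 3.33, 3.28 and 3.87. Their part in the differences between cell types was not tested. In such samples fewer cells of a type and less RNA per cell cannot be told apart.

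Of the 9 genes, 6 had a measurable signal in all 3 cell types and 3 were near background. Fgf23 exceeded the array's median intensity in 0 of 97 osteoblast, 0 of 100 lining cell and 2 of 97 osteocyte arrays, and its quantile-normalized log2 level in vehicle rats was 2.57, 2.55 and 2.57, so it was tested nowhere. Slc20a2 did so in 2, 2 and 7 arrays and Phex in 0, 0 and 76, so against vehicle both were tested in osteocytes alone, where Slc20a2 passed the filter narrowly. They also entered the tests between cell types, through osteocytes, but no difference is read from them there. A gene near background on these arrays has no measured change rather than a measured absence of change. The genes tested against vehicle were 6 in osteoblasts and lining cells and 8 in osteocytes, and a difference is called at a Benjamini-Hochberg adjusted p under 0.05 over all genes tested in limma.

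In vehicle rats, Ankh, Enpp1, Fam20c and Alpl were highest in osteocytes, and Phex was above background there alone. Over 40 vehicle arrays per cell type, pooled over the 8 days, the Ankh level was 7.72 ± 0.36 in osteoblasts, 7.89 ± 0.38 in lining cells and 9.09 ± 0.5 in osteocytes (quantile-normalized log2, SD, n = 40). The Fam20c level was 7 ± 0.41, 7 ± 0.26 and 8.01 ± 0.54 in the same order, and the Enpp1 level 3.86 ± 0.32, 4.29 ± 0.32 and 5.34 ± 0.48. The Phex level was 3.37 ± 0.37 in osteocytes, and its readings of 2.51 ± 0.22 in osteoblasts and 2.31 ± 0.19 in lining cells were not above background. The ranges still overlapped: the highest osteoblast Ankh value was 8.6 and the lowest osteocyte value 8.1. Alpl followed the same order with more spread, at 5.51 ± 0.46, 5.75 ± 0.52 and 6.48 ± 0.72. Phospho1 lay at 4.33 ± 0.47, 4.26 ± 0.45 and 4.35 ± 0.41, and Slc20a1 at 7.21 ± 0.53, 7.12 ± 0.55 and 6.98 ± 0.52. The 4 osteoclast markers on the array, of 6 listed, were also highest in osteocyte samples, at 7.81 in osteoblasts, 8.36 in lining cells and 8.87 in osteocytes, and their part in these levels was not tested.

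Tested on quantile-normalized values, the osteoblast-minus-osteocyte difference was called for 7 of 8 genes, beside 65.1% of the 11857 genes tested, so that count is near the background. Phex and Slc20a2 are among the 7 but were at background in osteoblasts. The differences were -1.48 (SE 0.07) for Enpp1, -1.37 (SE 0.07) for Ankh, -1.01 (SE 0.06) for Fam20c and -0.96 (SE 0.09) for Alpl, with limma adjusted p of 8.13e-19 or smaller. On the deposited values the Alpl difference was -0.15 and was not called (limma adjusted p = 0.0802). The other 3 kept their calls there, but with smaller differences. Their deposited means in osteoblasts and osteocytes were 7.45 and 7.68 for Fam20c, 8.17 and 8.78 for Ankh and 4.27 and 4.99 for Enpp1. The size of these differences thus depends on the normalization. Slc20a1 ran the other way, 0.23 (SE 0.08) higher in osteoblasts (limma adjusted p = 0.00708). The lining-cell-minus-osteocyte difference was called for 5 of 8 genes, against 60% of all genes. Enpp1, Ankh, Fam20c and Alpl were higher in osteocytes, and the other, Phex, was at background in lining cells. Osteoblasts and lining cells differed in 4 of 8 genes against 35.8% of all genes: Enpp1, Ankh and Alpl were lower in osteoblasts by 0.43, 0.17 and 0.24, and the fourth, Phex, was at background in both. Leaving out 1 vehicle array per group at a time ended the Ankh call in 4 of 5 fits (adjusted p up to 0.174) and the Alpl call in 3 of 5 (up to 0.165). Phospho1 differed in no pair of cell types (limma adjusted p = 0.272 to 0.787).

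**Figure D1:**
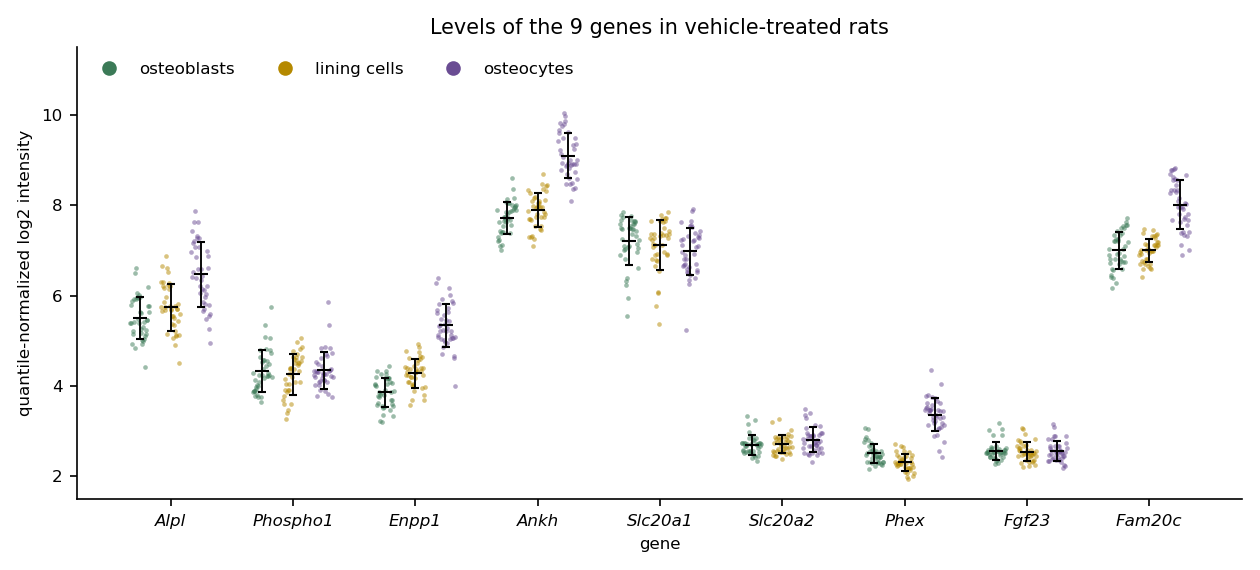
Levels of the 9 genes in vehicle rats, as quantile-normalized log2 intensity (vertical axis) by cell type, with 1 point per array (40 per cell type) and the mean ± SD. Ankh, Fam20c, Enpp1 and Alpl sit highest in osteocytes. Phex is above background in osteocytes alone, while Fgf23 lies near 2.57 and Slc20a2 near 2.7 to 2.81 in every cell type.

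At 50 mg/kg Scl-Ab, Ankh and Fam20c were higher than in vehicle rats in osteocytes on days 29, 85 and 183. Alpl and Slc20a1 differed from vehicle in osteoblasts on some of the dosing days. On the dosing days, the mean of both doses differed from vehicle in 6 of 80 tests, 25 of which had an unadjusted p under 0.05. In osteoblasts 0 of 6 genes were called on day 8, 2 on day 29, 0 on day 85 and 1 on day 183, where 3.64%, 15%, 1.76% and 3.29% of all genes were. In lining cells none of the 6 was called by limma on any dosing day, with 9 of 24 tests at an unadjusted p under 0.05, beside 0.31%, 0.0431%, 0.0776% and 0.0517% of all genes. In osteocytes 0 of 8 were called on days 8 and 29, 1 on day 85 and 2 on day 183, beside 0.287%, 0.211%, 6.3% and 2.06%. Each of these counts above 0 is of 1 or 2 genes.

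With the doses tested apart, a split chosen after the data were seen, the calls were at 50 mg/kg. At 50 mg/kg limma called 15 of 80 tests, 12 higher and 3 lower than vehicle. In osteoblasts the counts were 0, 3, 1 and 1 of 6 genes on days 8, 29, 85 and 183, beside 8.19%, 28.4%, 4.47% and 4.43% of all genes. In lining cells they were 0, 0, 1 and 1 of 6, beside 0.621%, 0.207%, 0.983% and 1%. In osteocytes they were 1, 3, 2 and 2 of 8, beside 0.928%, 6.5%, 10.1% and 6.38%. At 3 mg/kg limma called 0 of 80 tests, 11 of which had an unadjusted p under 0.05. The background at 3 mg/kg was as low: 0%, 0.0701%, 0.0876% and 0.605% in osteoblasts, 0%, 0%, 0.0345% and 0% in lining cells, and 0.00843%, 0%, 1.46% and 0% in osteocytes, by day. Compared directly over the 4 dosing days, the doses differed in 0 of 6 genes in osteoblasts (1 at an unadjusted p under 0.05), 0 of 6 in lining cells (0 at that level) and 2 of 8 in osteocytes, where 2.53%, 0.647% and 15% of all genes did.

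**Figure D2:**
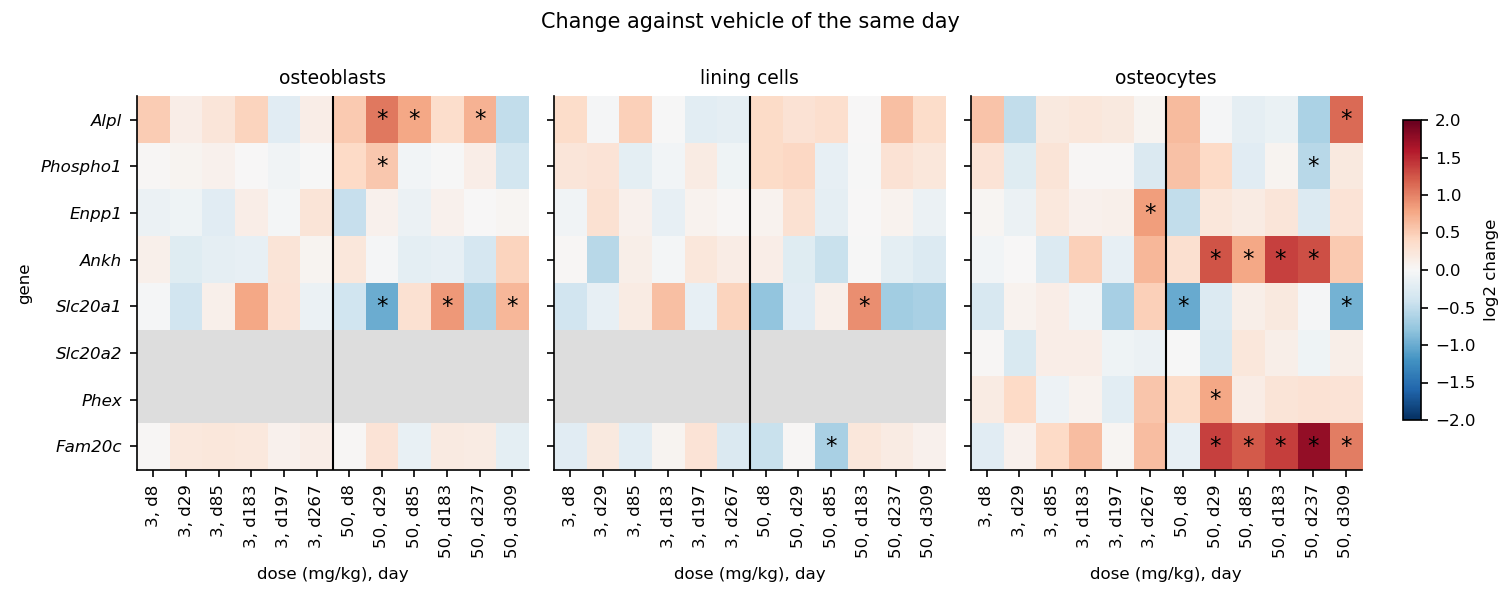
Log2 change against vehicle of the same day for 8 of the genes (rows) in each cell type, by dose and day (columns), with color for the change, an asterisk for a limma adjusted p under 0.05 and grey where a gene was not tested. The asterisks concentrate in the Ankh and Fam20c rows of osteocytes at 50 mg/kg, whereas 3 mg/kg has none on a dosing day.

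Among the phosphate-releasing enzymes, Alpl rose in osteoblasts on day 29 at 50 mg/kg. The vehicle arrays read 5.71, 5.89, 6.06, 6.51 and 5.47 (log2 intensity) and the 50 mg/kg arrays 6.82, 7.08, 7.08, 6.79 and 7.13, while the 3 mg/kg arrays read 5.72, 6.12, 6.06, 5.8 and 6.59. All 5 arrays at 50 mg/kg lay above all vehicle arrays, and those at 3 mg/kg overlapped with vehicle. The change was 1.05 (SE 0.22, limma adjusted p = 0.000301) at 50 mg/kg and 0.13 at 3 mg/kg. The 4 osteoblast markers averaged 10.91 (10.34 to 11.41) in the vehicle and 11.69 (11.56 to 11.86) in the 50 mg/kg arrays of that day, and the granulocyte markers 12.07 and 12.04; the part of the osteoblast shift in the Alpl result was not tested. For both doses together the day 29 change was 0.59 (limma adjusted p = 0.0279), and it lost its call with the array's signal range (the 90th minus the 50th percentile of log2) as a covariate and without 1 of 4 arrays in turn (adjusted p 0.00929 to 0.113).

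Alpl was also higher in osteoblasts at 50 mg/kg on day 85, at 6.82, 8, 6.91 and 7.44 against vehicle values of 6.82, 6.93, 6.26, 6.23 and 6.36, with the groups overlapping at 6.82 to 6.93. That change of 0.77 (SE 0.24, limma adjusted p = 0.0399) ended under 5 of 7 alternatives, and its adjusted p ran from 0.0223 to 0.258 as single arrays were left out. On day 237, after dosing ended, Alpl was 0.7 (SE 0.24) higher in osteoblasts (limma adjusted p = 0.041), a call that ended without 7 of 9 arrays in turn (0.0256 to 0.166) and with the signal range as a covariate. In osteocytes the change in Alpl on dosing days at 50 mg/kg stayed between -0.18 and 0.63 with no call. Alpl rose in osteocytes on day 309, from 5.02, 5.21, 5.44, 4.49 and 5.32 in vehicle to 6.68, 6.14, 5.69, 6.2 and 6.38 after 50 mg/kg, by 1.13 (SE 0.25, limma adjusted p = 0.000618) with no overlap. In the same arrays the granulocyte markers averaged 11.24 (10.93 to 11.45) in vehicle and 10.52 (10.23 to 10.93) after 50 mg/kg, and the osteoblast markers 10.65 and 11.47; their part in the Alpl result was not tested. The vehicle mean of that day, 5.1 ± 0.37 (SD, n = 5), was the lowest of the late vehicle days, the others being 6.02 on day 197, 6.12 on day 237 and 5.67 on day 267. On day 237 the Alpl change in osteocytes was -0.64 (limma adjusted p = 0.0721).

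Phospho1, the matrix vesicle phosphatase, rose in osteoblasts on day 29 at 50 mg/kg. The vehicle arrays read 4.15, 4.29, 4.43, 4.39 and 4.47 and the treated arrays 4.57, 5.01, 4.82, 4.91 and 5.11, with no overlap and a change of 0.54 (SE 0.2, limma adjusted p = 0.0301). The call ended without 5 of 10 arrays in turn (adjusted p 0.0199 to 0.0794) and with the signal range of an array as a covariate, which averaged 3.53 in vehicle and 3.16 at 50 mg/kg. It fell by 0.56 in osteocytes on day 237 (SE 0.2, limma adjusted p = 0.0478), from a vehicle mean of 4.15 to 3.58, with the groups overlapping. That call ended without 7 of 10 arrays in turn (0.00898 to 0.229), with no filter and with the compared groups fitted alone.

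**Figure D3:**
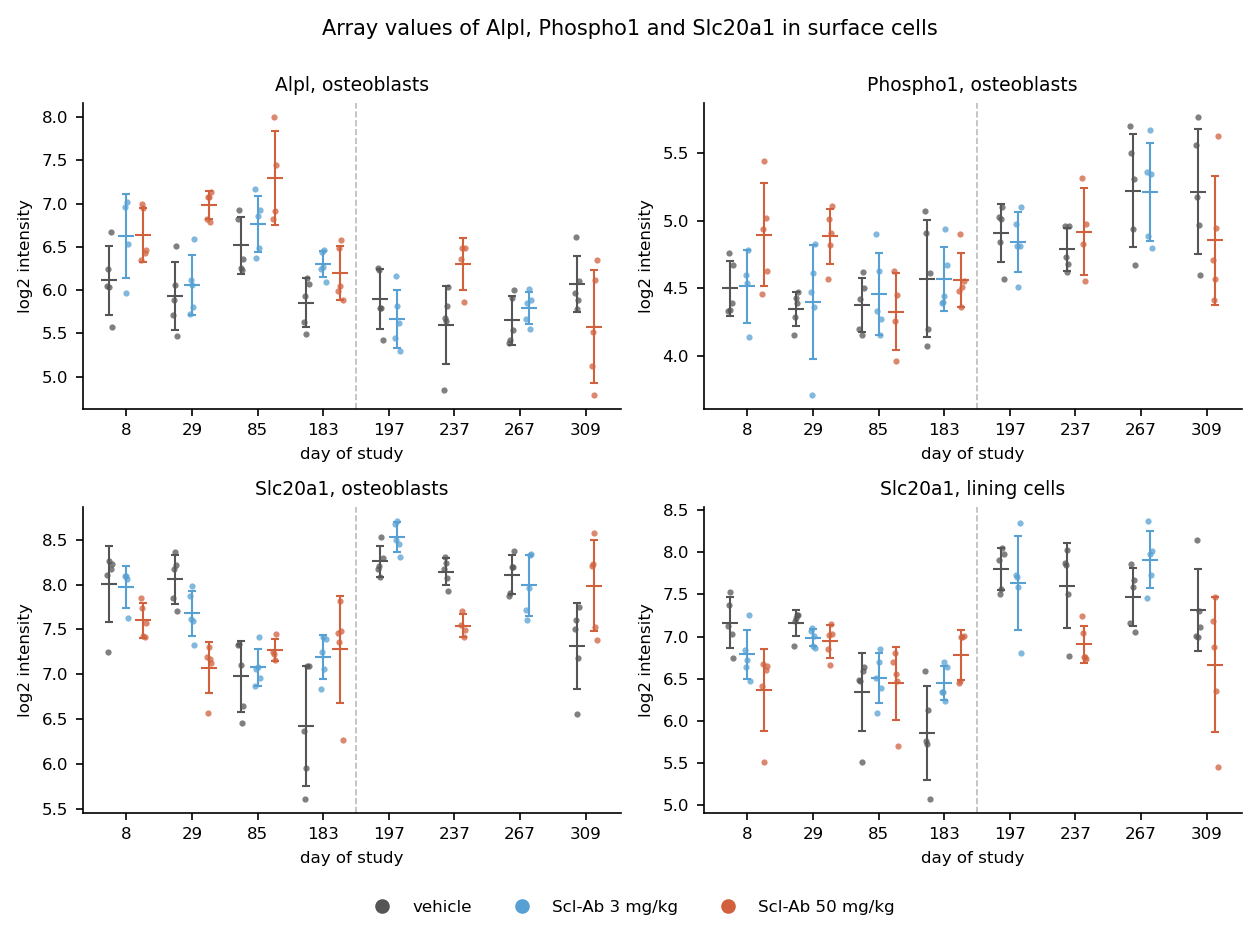
Log2 intensity (vertical axis) by day of Alpl, Phospho1 and Slc20a1 in osteoblasts and of Slc20a1 in lining cells, with 1 point per array and the mean ± SD of each treatment, and a dashed line where dosing ended. On day 29 the 50 mg/kg arrays sit above vehicle for Alpl and below it for Slc20a1, and on day 183 Slc20a1 is higher than vehicle in both cell types.

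Of the genes that supply extracellular pyrophosphate, Ankh moved in osteocytes and Enpp1 did so once. The 300 bases around a RefSeq start of Ankh, of Fam20c and of Alpl (GRCr8, 250 bases before the start and 50 from it, 5′ to 3′) are shown because Ankh and Fam20c moved together in osteocytes and Alpl in osteoblasts. Capitals mark a GC box, GGGCGG or its reverse complement CCGCCC.
Ankh, chr2:79883201-79883500, plus strand: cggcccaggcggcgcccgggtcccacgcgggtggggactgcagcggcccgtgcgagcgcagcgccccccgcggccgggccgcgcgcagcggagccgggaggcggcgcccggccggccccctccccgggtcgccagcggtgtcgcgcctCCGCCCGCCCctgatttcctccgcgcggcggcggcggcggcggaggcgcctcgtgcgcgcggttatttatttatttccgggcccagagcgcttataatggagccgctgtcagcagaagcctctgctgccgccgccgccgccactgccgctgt
Fam20c, chr12:20998269-20998568, minus strand: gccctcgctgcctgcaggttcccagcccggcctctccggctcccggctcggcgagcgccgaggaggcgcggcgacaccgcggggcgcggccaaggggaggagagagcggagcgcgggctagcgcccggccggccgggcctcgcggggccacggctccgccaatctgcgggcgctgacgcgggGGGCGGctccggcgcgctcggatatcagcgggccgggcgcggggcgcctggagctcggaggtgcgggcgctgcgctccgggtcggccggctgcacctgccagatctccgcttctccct
Alpl, chr5:155289736-155290035, minus strand: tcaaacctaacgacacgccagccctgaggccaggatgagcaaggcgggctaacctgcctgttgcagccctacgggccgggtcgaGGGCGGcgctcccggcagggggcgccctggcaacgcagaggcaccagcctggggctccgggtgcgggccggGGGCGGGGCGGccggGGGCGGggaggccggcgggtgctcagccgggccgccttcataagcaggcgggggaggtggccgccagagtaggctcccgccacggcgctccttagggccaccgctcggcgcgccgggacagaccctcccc
Such a window was given for 4 of the 9 genes. The GC box matched 2 times for Ankh, 1 time for Fam20c, 4 times for Alpl and 3 times for Phospho1, overlapping matches counted, and was in 33.1% of 33469 rat promoter windows. The windows were rich in G and C, at 78.3%, 80.0%, 76.3% and 77.3% against a median of 51.7%. The TCF/LEF core CTTTG or CAAAG was in none of the Ankh, Fam20c and Alpl windows, matched 1 time in that of Phospho1 and was in 53.8% of all windows. The RUNX core TGTGG or CCACA was in none of the 4 and in 55.8% of all windows.

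Ankh, the pyrophosphate and ATP exporter, rose in osteocytes at 50 mg/kg on days 29, 85 and 183. On day 29 the vehicle arrays read 8.39, 8.72, 8.92, 8.36 and 8.7, the 3 mg/kg arrays 8.2, 8.55, 8.68 and 9.03, and the 50 mg/kg arrays 9.76, 10.05, 10.21, 9.59 and 9.75. On day 183 the vehicle arrays read 8.24, 7.74, 7.98, 8.06 and 8.16, the 3 mg/kg arrays 8.56, 8.46, 8.43, 8.77 and 8.31, and the 50 mg/kg arrays 9.52, 9.36, 9.56, 9.3 and 9.27. The 50 mg/kg arrays were above every vehicle and every 3 mg/kg array on both days, and on day 183 the 3 mg/kg arrays were also above every vehicle array. The changes at 50 mg/kg were 1.25 (SE 0.21, limma adjusted p = 1.93e-05) on day 29, 0.77 (SE 0.24, adjusted p = 0.0283) on day 85 with 3 treated arrays, and 1.37 (SE 0.21, adjusted p = 1.46e-06) on day 183. On day 8 the change was 0.32 (limma adjusted p = 0.551). Vehicle means on days 8, 29 and 85 were 9.23, 8.62 and 9.21, and the 50 mg/kg means 9.56, 9.87 and 9.98. The lower vehicle mean of day 29 is thus part of the larger change on that day. Vehicle differed over these days (limma F test, adjusted p = 0.0248). That call ended with the signal range as a covariate and with the mean of the probe sets. The Ankh response in osteocytes was not called as differing over the dosing days (limma F test, adjusted p = 0.211). The day 85 call ended with array weights, with the compared groups fitted alone and without vehicle replicate 1 or treated replicate 2 or 3 (adjusted p 0.0189 to 0.148).

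The Ankh difference between doses in osteocytes, 50 minus 3 mg/kg over the 4 dosing days, was 0.9 (SE 0.11, limma adjusted p = 1.44e-09), from group means of 9.7 and 8.81. At 3 mg/kg the changes against vehicle were -0.06, 0, -0.28 and 0.47 on days 8, 29, 85 and 183. After 50 mg/kg was stopped Ankh was still higher on day 237, at 10.42, 10.24, 9.78, 10.35 and 10.23 against 9.31, 9.24, 8.6, 9.28 and 8.14, a change of 1.29 (SE 0.21, limma adjusted p = 2.98e-06) with no overlap. On day 309 the groups overlapped and the change was 0.53 (limma adjusted p = 0.0683), and on day 267, after 3 mg/kg, it was 0.66 (adjusted p = 0.0586). The other Ankh probe set, much dimmer, had osteocyte means of 3.47 ± 0.2 in vehicle and 4.33 ± 0.44 at 50 mg/kg on day 29, and of 3.42 ± 0.15 and 3.89 ± 0.31 on day 183 (SD, n = 5), in the same direction. The both-dose change of Ankh over the dosing days was 0.56 smaller in osteoblasts than in osteocytes (SE 0.14, limma adjusted p = 0.0072) and 0.6 smaller in lining cells (SE 0.14, adjusted p = 0.00237).

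Enpp1, the pyrophosphate-producing enzyme, was called against vehicle on 1 occasion, in osteocytes on day 267 after 3 mg/kg. The vehicle arrays read 5.46, 5.92, 5.21, 5.74 and 4.6 and the treated arrays 6.43, 5.66, 6.48, 6.16 and 6.33, a change of 0.83 (SE 0.25, limma adjusted p = 0.0382) with 1 treated array inside the vehicle range. The call ended without 7 of 10 arrays in turn (0.0176 to 0.253), with quantile normalization and with the signal range as a covariate. The osteocyte markers averaged 6.54 and 7.51 in these groups, and their part was not tested. On the dosing days at 50 mg/kg the Enpp1 change in osteocytes lay between -0.5 and 0.24.

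Among vehicle rats Enpp1 was one of the more variable genes of the set over days. Between days 8, 29 and 85, or between days 197, 237, 267 and 309, vehicle groups differed in 2 and 2 of 6 genes in osteoblasts (48.3% and 22.6% of all genes), 1 and 1 of 6 in lining cells (3.19% and 6.78%) and 3 and 3 of 8 in osteocytes (30.8% and 11.4%). Array numbers in the labels fall into 3 runs, days 8 to 85, day 183 and days 197 to 309, and run and day cannot be told apart, so vehicle days were compared within a run alone. In the late span Enpp1 was highest on day 267 and lowest on day 309 in all 3 cell types, with means of 4.61 ± 0.16 and 3.97 ± 0.2 in osteoblasts, 4.71 ± 0.2 and 3.94 ± 0.31 in lining cells and 5.39 ± 0.52 and 4.34 ± 0.48 in osteocytes (SD, n = 5). The late-span tests over all 4 days gave limma adjusted p of 0.00681, 0.0121 and 0.00925. The osteoblast call ended with the signal range as a covariate. The lining cell call ended with quantile normalization and without replicate 3 or 4 of day 309 (adjusted p up to 0.0694). The osteocyte call ended without replicate 4 of that day (up to 0.0832). In the early span Enpp1 was highest on day 8 in all 3 cell types, with tests called in osteoblasts (limma adjusted p = 0.00813) and osteocytes (0.00898). The osteocyte call ended without replicate 1 of day 8 (0.0538), with quantile normalization and with the signal range as a covariate.

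Slc20a1, a sodium-dependent phosphate carrier, differed from vehicle in both directions. In osteoblasts on day 29 the vehicle arrays read 7.85, 8.17, 8.36, 8.22 and 7.7, the 3 mg/kg arrays 7.87, 7.62, 7.98, 7.59 and 7.33, and the 50 mg/kg arrays 7.19, 6.57, 7.3, 7.17 and 7.13. On day 183 they read 6.37, 5.61, 5.95, 7.09 and 7.09 in vehicle, 6.83, 7.25, 7.41, 7.06 and 7.39 at 3 mg/kg and 7.46, 7.36, 7.82, 7.48 and 6.26 at 50 mg/kg. The 50 mg/kg arrays thus lay below all vehicle arrays on day 29, and 4 of the 5 lay above them on day 183. At 50 mg/kg Slc20a1 was lower than vehicle by 0.99 (SE 0.21, limma adjusted p = 0.000363) on day 29 and higher by 0.86 (SE 0.21, adjusted p = 0.00882) on day 183. The vehicle mean was 8.06 on day 29, 6.97 on day 85 and 6.42 on day 183. The 50 mg/kg mean was 7.07 on day 29 and 7.27 on day 85. The change of sign thus went with a lower vehicle mean on day 183, which belongs to another array run. For both doses the changes were -0.68 (limma adjusted p = 0.00832) and 0.81 (adjusted p = 0.00465), and without vehicle replicate 2 the day 183 change was 0.61 (adjusted p = 0.0884).

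The response of Slc20a1 in osteoblasts differed over the 4 dosing days (limma F test, adjusted p = 0.000463). This was 1 of 6 genes in osteoblasts, where 17.7% of all genes were called, against 0 of 6 in lining cells (3 at an unadjusted p under 0.05; background 0.0431%) and 0 of 8 in osteocytes (4 at that level; background 0.767%). The signal range of the arrays moved with these values. It averaged 3.53 in vehicle and 3.16 at 50 mg/kg on day 29, and 2.68 and 2.88 on day 183. The calls at 50 mg/kg on both days, and that for both doses on day 29, ended with the signal range as a covariate. The day 183 calls, at 50 mg/kg and for both doses, also ended with the compared groups fitted alone, and that at 50 mg/kg ended without vehicle replicate 2 or treated replicate 3 (adjusted p 0.000317 to 0.0898). On day 183 the granulocyte markers averaged 11.23 (10.81 to 11.54) in vehicle, 11.67 at 3 mg/kg and 12.01 (11.88 to 12.2) at 50 mg/kg, and their part in the Slc20a1 result was not tested.

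Slc20a1 was called in 4 further comparisons. In lining cells it rose on day 183 at 50 mg/kg, from 6.59, 5.76, 5.73, 6.13 and 5.08 to 6.45, 6.47, 6.99, 7 and 7.01, by 0.93 (SE 0.25, limma adjusted p = 0.0372), while the granulocyte markers went from 10.96 to 11.71; the call ended without 6 of 10 arrays in turn (0.0145 to 0.204). In osteocytes it fell on day 8 at 50 mg/kg, from 7.06, 7.39, 6.8, 7.02 and 6.9 to 6.54, 5.97, 5.9, 5.91 and 5.81, by 1.01 (SE 0.25, limma adjusted p = 0.0245) with no overlap. That call ended without 6 of 10 arrays in turn (0.012 to 0.0794). It fell again in osteocytes on day 309, by 0.94 (SE 0.25, limma adjusted p = 0.00508), when the granulocyte markers averaged 11.24 in vehicle and 10.52 after 50 mg/kg; without treated replicate 5 the adjusted p was 0.0589, and the signal range as a covariate ended the call. In osteoblasts on day 309 it rose by 0.67 (SE 0.21, limma adjusted p = 0.0308), a call that ended without 5 of 10 arrays in turn (0.00959 to 0.247) and under 4 of 7 alternatives: quantile normalization, array weights, the signal range as a covariate and the compared groups alone.

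Vehicle levels of Slc20a1 also differed over days. In osteoblasts its vehicle mean was 8 ± 0.43 on day 8, 8.06 ± 0.27 on day 29 and 6.97 ± 0.4 on day 85 (SD, n = 5; limma adjusted p = 1.58e-05 over the 3 days). Lining cells had 7.16 ± 0.3, 7.16 ± 0.15 and 6.34 ± 0.46 (adjusted p = 0.0418 in limma), and osteocytes 7.03 ± 0.22, 6.33 ± 0.12 and 5.89 ± 0.73 (adjusted p = 0.00121 in limma). Day 85 was the lowest of these 3 days in every cell type. The calls in all 3 cell types ended with the signal range as a covariate, and the lining cell call also ended without 8 of 15 arrays in turn (0.0293 to 0.225). Slc20a2, the paralogous carrier, stayed near background, at 2.7, 2.71 and 2.81 in osteoblasts, lining cells and osteocytes of vehicle rats, and was not called against vehicle in osteocytes.

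Fam20c, the secretory pathway kinase, had the largest called change of the set against vehicle, in osteocytes. On day 29 the vehicle arrays read 7.35, 8.17, 7.92, 8.26 and 8.03, the 3 mg/kg arrays 7.65, 7.87, 8.11 and 8.48, and the 50 mg/kg arrays 8.83, 9.51, 9.65, 8.92 and 9.67. On day 85 the vehicle arrays read 7.95, 8.14, 7.87, 7.64 and 7.61 and the 50 mg/kg arrays 9.1, 9.1 and 8.99. On both days every 50 mg/kg array was above every vehicle array, and the 3 mg/kg arrays of day 29 overlapped with vehicle. On day 183 the vehicle arrays read 7.94, 7.26, 7.19, 7.21 and 7.35, the 3 mg/kg arrays 7.86, 7.96, 8.11, 8.33 and 7.82, and the 50 mg/kg arrays 8.71, 8.94, 8.63, 8.71 and 8.86. The 3 treatments then lay in order of dose, with 1 vehicle array inside the 3 mg/kg range.

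At 50 mg/kg the Fam20c changes were -0.16 (limma adjusted p = 0.848) on day 8, 1.37 (SE 0.24, adjusted p = 5.12e-05) on day 29, 1.23 (SE 0.28, adjusted p = 0.00153) on day 85 and 1.38 (SE 0.24, adjusted p = 2.65e-05) on day 183. Of these calls, that of day 85 ended with array weights. At 3 mg/kg they were -0.22, 0.08, 0.4 and 0.62, none called. The dose difference over the 4 days was 0.73 (SE 0.13, limma adjusted p = 1.1e-05), from means of 8.83 and 8.1. For both doses together the change was 0.81 on day 85 (limma adjusted p = 0.0144), which array weights or fitting the compared groups alone ended, and 1 log2 unit on day 183 (adjusted p = 0.00163). Ankh was likewise 0.92 higher for both doses on day 183 (limma adjusted p = 0.000644).

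After 50 mg/kg was stopped, Fam20c stood at 9.74, 10.05, 8.75, 9.05 and 10.14 on day 237 against 7.62, 8.04, 7.62, 8.44 and 7.27 in vehicle, 1.75 higher (SE 0.24, limma adjusted p = 6.6e-08) with no overlap. On day 309 it was 1.02 higher (SE 0.24, limma adjusted p = 0.00171), with 1 treated array, at 7.35, inside the vehicle range. After 3 mg/kg the changes were 0.04 on day 197 and 0.62 on day 267 (limma adjusted p = 0.149). Across the set, after dosing limma called 9 of 80 tests, 7 higher and 2 lower, with 21 at an unadjusted p under 0.05. By day (197, 267, 237 and 309) these were 0, 0, 1 and 1 of 6 genes in osteoblasts (0.0789%, 0%, 10.7% and 10.5% of all genes), 0 of 6 on each day in lining cells (0.0603%, 1.08%, 1.45% and 0.405%; 3 of 24 tests at an unadjusted p under 0.05) and 0, 1, 3 and 3 of 8 in osteocytes (1.11%, 3.63%, 13.2% and 16.4%).

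In lining cells Fam20c was called in the opposite direction on 1 day. It fell by 0.65 (SE 0.17, limma adjusted p = 0.0395) at 50 mg/kg on day 85, from 7.01, 6.51, 6.86, 6.81 and 6.69 to 6.32, 6.52, 5.88, 5.95 and 5.98, and the call ended without 7 of 10 arrays in turn (0.0198 to 0.104), with array weights and with the compared groups fitted alone. Over the dosing days its both-dose change was 0.72 smaller in lining cells than in osteocytes (SE 0.12, limma adjusted p = 4e-06) and 0.46 smaller in osteoblasts (SE 0.12, adjusted p = 0.0107). Such differences in response were called for 3 of 8 genes between osteoblasts and osteocytes (3.57% of 12507 genes), the third being Phex, which was at background in osteoblasts, 2 of 8 between lining cells and osteocytes (2.67%) and 0 of 8 between osteoblasts and lining cells, where 0% of all genes were. Arrays numbered alike, by a number that the labels do not give, were also left out of all groups at once. The osteoblast-osteocyte differences of Ankh and Fam20c lost their calls without replicate 4 of every group (limma adjusted p = 0.0997 and 0.076). The lining cell difference of Ankh lost its call without replicate 1 of every group (limma adjusted p = 0.0503).

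**Figure D4:**
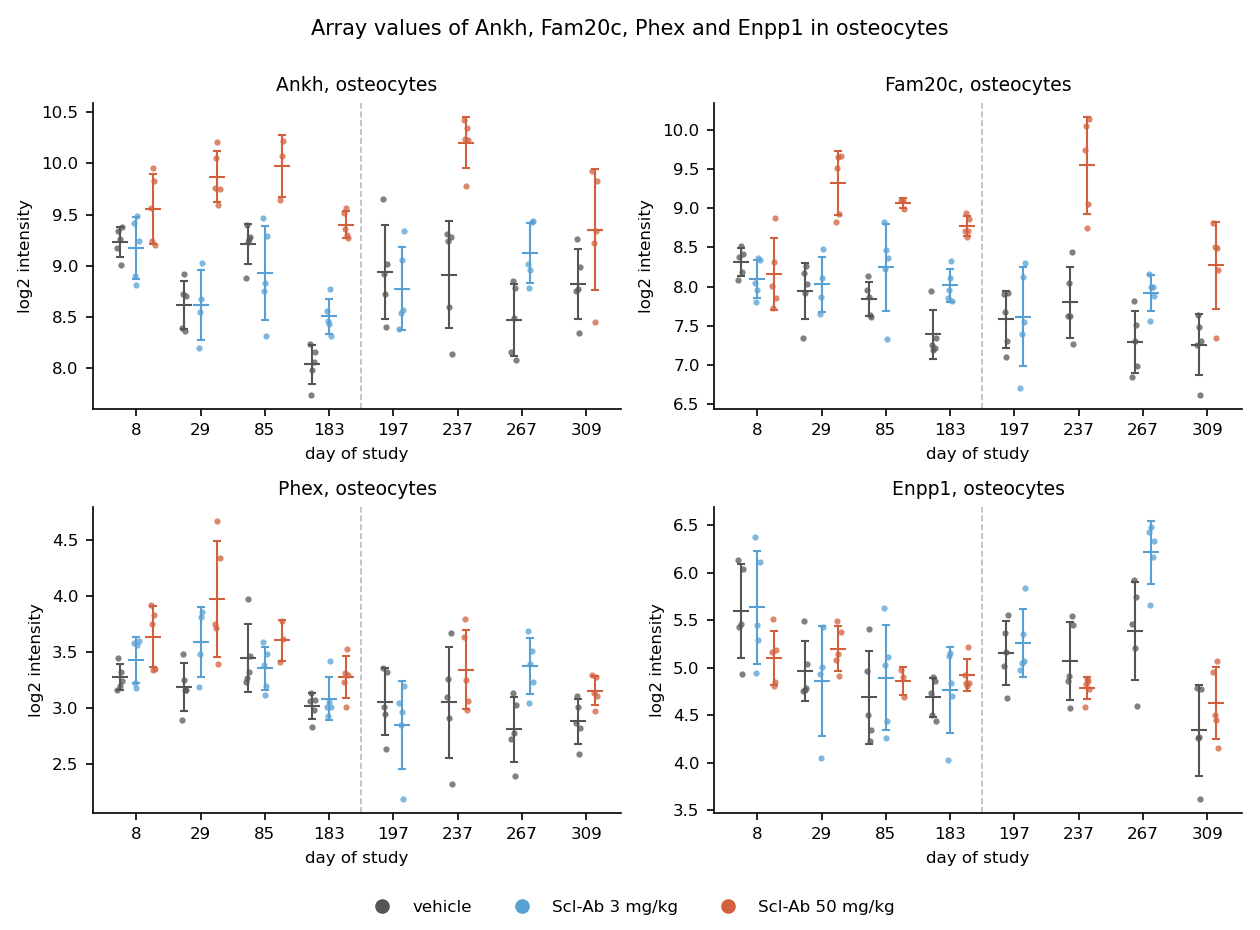
Log2 intensity (vertical axis) of Ankh, Fam20c, Phex and Enpp1 in osteocytes by day, with 1 point per array and the mean ± SD of each treatment, and a dashed line where dosing ended. The 50 mg/kg arrays of Ankh and Fam20c sit above vehicle on days 29, 85, 183 and 237 without overlap, and the 3 mg/kg arrays lie near vehicle on days 8 and 29.

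Markers of osteocytes moved with Ankh and Fam20c. The 4 osteocyte markers averaged 7.61 (6.97 to 7.88) in vehicle and 9.03 (8.62 to 9.32) at 50 mg/kg on day 29, 7.58 (7.31 to 8.29) and 9.18 (8.99 to 9.34) on day 85, 6.66 (6.32 to 7.03) and 8.62 (8.38 to 8.8) on day 183, 6.89 (6.05 to 7.61) and 8.72 (8.61 to 8.94) on day 237, and 6.36 (5.59 to 7.35) and 7.76 (6.73 to 8.26) on day 309. On day 8, when neither gene was called, the marker means were 7.76 and 8.19. The granulocyte markers were lower at 50 mg/kg on day 29 (10.56 in vehicle, 9.66 treated) and day 85 (10.38 and 9.85), and level on day 183, at 10.29 (10.08 to 10.64) and 10.33 (10.06 to 10.65), when both genes rose. On day 309, when Fam20c was called, they averaged 11.24 and 10.52. The part of these markers in the Ankh and Fam20c results was not tested.

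Phex, the endopeptidase that restrains FGF23, rose in osteocytes on day 29 at 50 mg/kg. The vehicle arrays read 2.89, 3.48, 3.25, 3.16 and 3.16 and the treated arrays 3.75, 3.71, 4.67, 3.39 and 4.34, a change of 0.78 (SE 0.18, limma adjusted p = 0.00206) with 1 treated array inside the vehicle range. Fitting the compared groups alone ended that call. On days 8, 85 and 183 the Phex changes were 0.37, 0.15 and 0.26, and on day 267 after 3 mg/kg 0.56 (limma adjusted p = 0.0586). Fgf23 had no testable signal in any group.

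A list of 25 other genes of phosphate handling and mineralization, of which 19 were tested, was called in 26 of 228 tests at 50 mg/kg on dosing days, 21 higher and 5 lower. By day these were 3, 7, 3 and 0 of 19 genes in osteoblasts, 1, 0, 0 and 0 in lining cells and 1, 4, 4 and 3 in osteocytes, beside the shares of all genes given for 50 mg/kg, such as 28.4% in osteoblasts on day 29 and 10.1% in osteocytes on day 85. The list was called in 1 test at 3 mg/kg. In osteocytes Dmp1, a matrix phosphoprotein and FAM20C substrate, rose by 1.35, 1.37 and 2.17 on days 29, 85 and 183 at 50 mg/kg (limma adjusted p = 0.0016, 0.0051 and 1.4e-07). Mepe, a matrix glycoprotein with a mineral-binding peptide, rose by 1.61, 1.84 and 2.82, and the FGF23 receptor Fgfr1 by 1.54, 0.94 and 0.95. Dmp1 and Mepe are among the osteocyte markers above. Ppa1 was the 1 list gene called lower in osteocytes on day 29, and its difference between doses there was -0.38 (limma adjusted p = 0.00302). In osteoblasts Ppa1 and Ppa2 were called higher on day 8 at 50 mg/kg. Both were called again on day 29, when 4 of the 7 called genes were lower and 3 higher. In osteoblasts Smpd3, a sphingomyelinase needed for mineralization, rose by 0.99, 1.18 and 1.39 on days 8, 29 and 85, and differed between doses by 0.85 (limma adjusted p = 4.82e-05). It was also called higher on day 8 at 50 mg/kg in lining cells and in osteocytes. Its response over the dosing days was not called as different between any pair of cell types. After dosing 19 tests of the list were called, 13 higher and 6 lower. Of these 16 were in osteocytes, 4, 7 and 5 of 19 genes on days 267, 237 and 309, where 3.63%, 13.2% and 16.4% of all genes were called, and Mepe was 2.86 higher on day 237 and 2.83 higher on day 309.

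Likeness of pattern was described as Pearson's r over the 60 group means, centred within each cell type, among 11126 genes. Groups share runs, and the labels do not say whether they share rats across cell types, so no p is given. Ankh was most like Ninj2 (r = 0.78), Fam20c (0.78) and Plcg1 (0.77). Fam20c was most like Ninj2 (0.9), Txnrd3 (0.86) and Hivep3 (0.84). Alpl was most like Sgms2 (0.86), Copz2 (0.84) and Ptprs (0.83), and Phospho1 like Ell2 (0.79), Akt2 (0.76) and Rnf10 (0.76). Enpp1 was most like Tbc1d10b (0.72), Med31 (0.71) and Pfdn5 (0.69), and Slc20a1 like Tdrd7, Ngly1 and Cd48 (0.86 each). Within the set Alpl and Slc20a1 ran against each other, at r = -0.7.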

How the data were processed

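RNA from laser-captured vertebral samples was measured on Affymetrix rat expression arrays. The authors deposited linear intensity values per probe set; the submitters' processing notes name Affymetrix Expression Console, RMA, R 3.0.1 and affy 1.38.1, with no order or role. Of 31042 probe sets, 20826 named 1 gene, 436 several and 9780 none in the platform annotation; 0 value columns were left unused. Here log2 was taken of the deposited intensities and limma 3.58.1 (R 4.3.3) was fitted per cell type over all 20 groups, on genes above the array median in at least 5 arrays (11412, 11600 and 11859 in osteoblasts, lining cells and osteocytes). Cell types were compared on quantile-normalized values (vehicle) or by their responses on deposited log2 values. The models were tested on simulated data. The number of arrays limits precision. The members, the lists and the rule for named genes (all 9 members, up to 4 called genes of the list per comparison with the largest change, and the 3 most alike genes) were chosen with earlier results of these data known. Alternatives were quantile normalization, no filter, array weights, signal range as a covariate, the compared groups alone, the mean of a gene's probe sets, and leaving out arrays. Labels link no samples of one rat across cell types. Promoter windows and gene names are RefSeq's, build GRCr8.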

Additional observations from a re-analysis of the deposited data

Results flagged for a closer look

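Of 54 groups checked for an array far from the others, 4 had one, where chance gives about 1 in 20 groups. Slc20a1 in osteoblasts at 50 mg/kg on day 29 was 6.57 in replicate 2, against 7.13 to 7.3 in the others. Slc20a1 in osteocytes at 50 mg/kg on day 8 was 6.54 in replicate 1, against 5.81 to 5.97. Fam20c in vehicle osteocytes on day 183 was 7.94 in replicate 1, against 7.19 to 7.35. Ankh in osteocytes at 50 mg/kg on day 237 was 9.78 in replicate 3, against 10.23 to 10.42.

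Responses differed between groups for 3 genes. The Slc20a1 response in osteoblasts differed over the dosing days (limma adjusted p = 0.000463). The osteoblast-minus-osteocyte difference in response was -0.56 for Ankh, -0.46 for Fam20c. For Phex it was -0.31, but Phex was at background in osteoblasts (0 of 97 arrays above the median), so this is no measured difference in response. The lining-cell-minus-osteocyte difference was -0.6 for Ankh and -0.72 for Fam20c.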

How the results depend on the processing

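No paired analysis was possible because the labels give no replicate number or animal shared between groups. Of 408 alternative settings over 66 named results, 355 kept the direction and the call, 49 lost the call and 4 turned the sign. Those 4 were vehicle differences on the deposited values, where cell types have unlike medians: osteoblast minus lining cell 0.29 for Alpl, 0.31 for Ankh and 0.03 for Enpp1, and osteoblast minus osteocyte 0.26 for Slc20a2. The cause of the other changes was not tested. The Ankh and Fam20c calls in osteocytes at 50 mg/kg on days 29, 183 and 237, and their dose differences, held under every alternative run. Quantile normalization gave 1 call at 3 mg/kg in place of 0 and 2 for the response over days in place of 1. No filter, and the compared groups alone, also gave 2 for the response over days. Array weights gave 11 calls on dosing days in place of 6, 1 at 3 mg/kg, 16 after dosing in place of 9 and 3 for the response over days. The signal range covariate gave 5 after dosing, 4 over vehicle days in place of 12 and 2 for the response over days. Leaving out single arrays gave 5 to 7 calls on dosing days, 0 to 1 at 3 mg/kg, 14 to 16 at 50 mg/kg and 8 to 11 after dosing. It gave 2 to 3 between doses, 11 to 13 over vehicle days and 1 to 2 for the response over days. For the comparisons between cell types, 1 array of every group was left out at once, in 5 fits. These gave 13 to 15 calls in vehicle in place of 16, and 2 to 4 for the response between cell types in place of 5. The fits at 3 and 50 mg/kg alone were chosen after seeing the data. Fgf23 and Slc20a2, and Phex outside osteocytes, lie too near background for a change to be measured, and the counts between cell types include the calls of Phex and Slc20a2.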
